A study of Rattus norvegicus with 6 samples.

Results

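A set of 10 microRNAs that are best known from tissues other than the heart was followed in the left ventricle of the rat. They are miR-200a, miR-200b, miR-200c, miR-141 and miR-429 (the miR-200 family), the skin and squamous epithelium miRNAs miR-203 and miR-205, and miR-192, miR-194 and miR-122, which are abundant in liver or gut. The assays were taken from the tables by these names, a rule that uses no measured value, and assays of the minor strand (marked with an asterisk) were kept apart. All 10 names were found among 584 miRNA assays. Each had 1 well per sample, and all 10 lay on the card called card A here, which held 375 of the miRNA assays.

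The samples were left ventricles of 3 OLETF rats, labelled as having type 2 diabetes, and 3 LETO rats, the healthy control strain. All OLETF rats were diabetic and all LETO rats were not, so strain and diabetes cannot be told apart, and the labels used here give neither age nor treatment. The labels list 1 heart sample per replicate and do not say whether the rats came from separate litters, so every p-value refers to the spread among these 6 samples, which may be partly technical. No liver, gut or epithelial sample was analysed here, so the values show which assays amplified in ventricle and do not give a ratio to the tissue of origin.

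MicroRNAs are short RNAs that lower the output of messenger RNAs paired with their seed, the stretch near the 5′ end. The miR-200 family holds back ZEB1 and ZEB2, the repressors that drive the change from epithelial to mesenchymal state, and is a standard marker of epithelium. miR-122 is the dominant miRNA of hepatocytes, and miR-192 and miR-194 are made from shared precursors in gut, liver and kidney. Cardiac muscle cells, fibroblasts and vessel cells make up most of the ventricle, while epithelial cells are a minor part of it.

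The mature sequences of the miRNAs that the results turn on show which of them are alike and which are not. They are RefSeq rat sequences on GRCr8, printed 5′ to 3′ with the seed (bases 2 to 8) in capitals. The deposited tables name each assay without its sequence, so the main strand under that name was taken. All 10 assays carry the mouse prefix (mmu-), and whether their targets match the rat sequences in full is not stated. Sequences for 6 of the 10 are printed.
miR-200c: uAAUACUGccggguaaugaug
miR-141: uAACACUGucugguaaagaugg
miR-203: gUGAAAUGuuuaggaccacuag
miR-205: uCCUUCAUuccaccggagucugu
miR-192: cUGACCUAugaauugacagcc
miR-194: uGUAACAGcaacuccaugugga

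The 6 sequences had 6 different seeds. Over the 21 bases that could be compared, miR-200c and miR-141 were identical at 17. Counted from 1 at the 5′ end, with the base of miR-200c first, they differed at U4C, which lies in the seed, and at C9U, G11U and U17A. The seed of miR-192 was also that of miR-215 in the table. In the miR-200 family, miR-200b and miR-429 are known to carry the seed of miR-200c, and miR-200a that of miR-141. These 3 are not among the sequences printed.

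The genes lie in a few tight groups. The mature miR-200c lies at chr4:159209969-159209989 and miR-141 at chr4:159209540-159209561, both on the minus strand, and their hairpins together span 509 bases that overlap no protein-coding gene in the RefSeq gene table. The hairpins of miR-200b, miR-200a and miR-429 span 1908 bases of the minus strand of chromosome 5 and lie within the bounds of Ttll10, a tubulin tyrosine ligase-like gene, and of a long noncoding RNA gene. The mature miR-192 lies at chr1:212994232-212994252 beside a copy of miR-194 at chr1:212994038-212994059, with hairpins spanning 295 bases of the plus strand outside any other gene of that table. A further copy of miR-194, at chr13:99382730-99382751 on the plus strand, lies beside the miR-215 hairpin, and both hairpins together span 371 bases within the bounds of Iars2, the mitochondrial isoleucyl-tRNA synthetase gene. The copies of miR-194 have the same mature sequence, so the assay cannot separate them. miR-203 lies at chr6:137020756-137020777 on the plus strand and miR-205 at chr13:107564588-107564610 on the minus strand, neither within a protein-coding gene of that table, which gives gene bounds without exons.

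Each value is a threshold cycle (Ct), the PCR cycle at which a well crosses the detection threshold. A lower Ct means more RNA, by a factor of 2 per cycle if amplification is complete. A miRNA was counted as measured in a sample if its Ct was under 35, and as determined if its well gave any Ct at all. Assays can differ in efficiency, so an order of Ct values is not strictly an order of RNA amounts. In whole tissue, fewer cells of a type and less RNA per cell cannot be told apart.

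LETO replicate 3 stood apart on the whole card. It measured 202 of the 375 miRNA assays, against 144 to 165 in the other 5 samples, and its median Ct over the 122 assays measured in all 6 samples was 26.5, against 27.96 to 30.02. Its U6 small nuclear RNA, the reference that the authors used, had a Ct of 17.9, within the range of 17.5 to 19.2 of the other samples. The next lowest median Ct was that of OLETF replicate 3, at 27.96. The counts of members measured, their order by Ct, their spread, the most alike assays and the strain differences are therefore also given without LETO replicate 3.

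The members differed in how many samples they amplified in. Of the 10, 4 were measured in all 6 samples (miR-200c, miR-203, miR-192 and miR-194), 2 in some samples (miR-141 and miR-200a), 2 gave a Ct in some samples but none under 35 (miR-429 and miR-200b), and 2 gave no Ct in any sample (miR-205 and miR-122). Over all miRNA assays of card A, 32.5% were measured in all 6 samples, 56.0% in at least 1 sample, and 68.0% were determined in at least 1 sample. The members' counts of 4, 6 and 8 of 10 lie near those shares. Without LETO replicate 3, the counts were again 4 members in all samples and 6 in at least 1. The count in at least 1 sample was 5 without OLETF replicate 3, the sample that alone measured miR-200a, 4 with a Ct limit of 32 and 8 with a limit of 38.

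**Figure D1:**
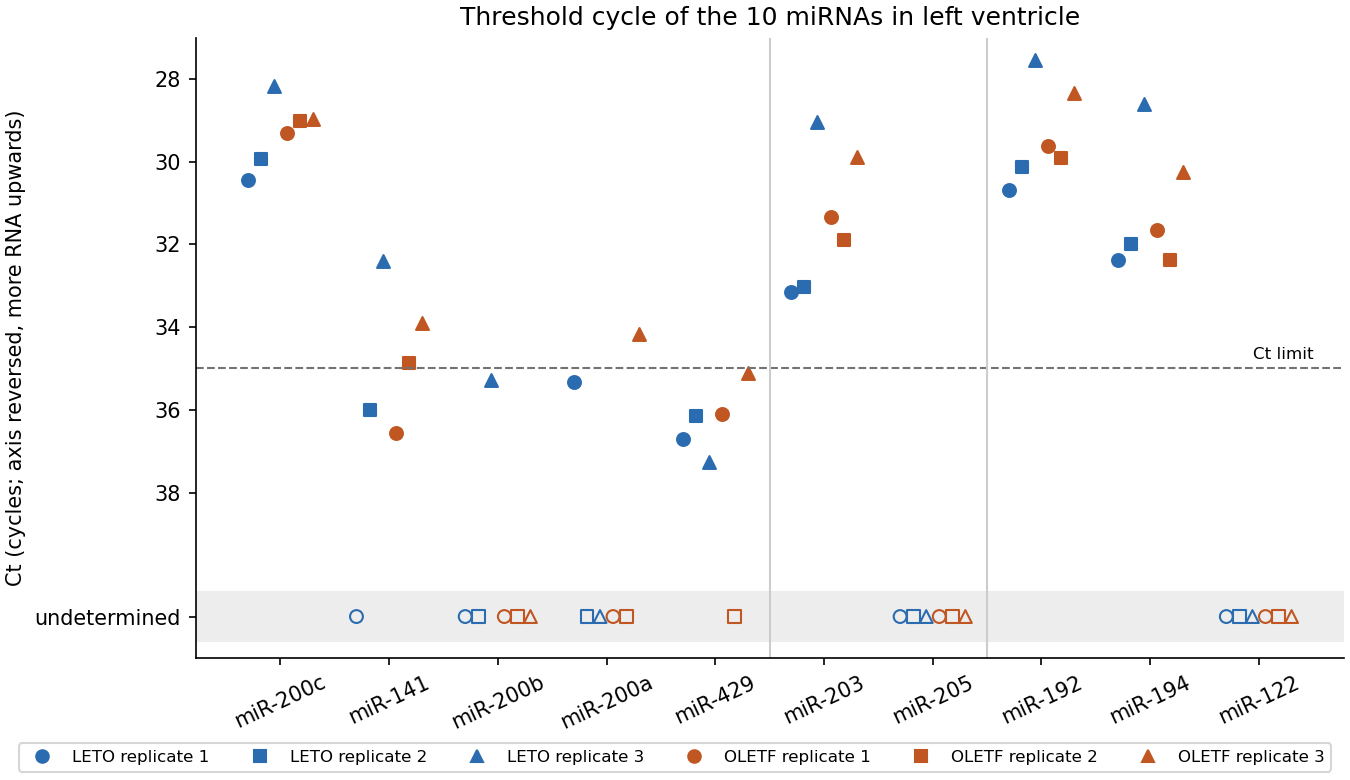
Threshold cycle (cycles, axis reversed so that more RNA is upwards) of each of the 10 miRNAs in each of the 3 LETO and 3 OLETF samples, with open symbols in the grey band for wells that gave no Ct and a dashed line at the limit of 35. miR-200c, miR-203, miR-192 and miR-194 lie above the line in all 6 samples, while miR-205 and miR-122 have open symbols only.

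In the miR-200 family, miR-200c was the one member found throughout. LETO replicates 1 to 3 gave Ct values of 30.4, 29.9 and 28.2, and OLETF replicates 1 to 3 gave 29.3, 29.0 and 29.0. LETO replicates 1 and 2 had the highest Ct, LETO replicate 3 the lowest, and the OLETF samples lay between them. The mean Ct of 29.3 ranked 70 of the 122 card A assays measured in all samples, counting from the lowest Ct.

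miR-141, the neighbour of miR-200c in the genome, amplified late. It gave no Ct in LETO replicate 1, 36.01 in LETO replicate 2 and 32.4 in LETO replicate 3, and 36.6, 34.87 and 33.9 in the OLETF samples. It thus passed the limit in 1 LETO and 2 OLETF samples, and without LETO replicate 3 in no LETO sample. Within the 5 samples that gave both, the Ct of miR-141 was 5.67 ± 1.17 cycles (SD, n = 5) above that of miR-200c, with a range of 4.21 to 7.27.

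The members encoded together on chromosome 5 were at or past the limit. miR-429 gave a Ct of 36.7, 36.1 and 37.3 in the LETO samples, 36.1 and 35.1 in OLETF replicates 1 and 3, and none in OLETF replicate 2, so it was determined in 5 samples and measured in 0. LETO replicate 3, which had the lowest Ct of the 4 miRNAs measured throughout, had the highest Ct of miR-429. miR-200a gave a Ct in LETO replicate 1 (35.3) and OLETF replicate 3 (34.2) and was measured in the latter only. miR-200b gave a Ct in LETO replicate 3 alone, at 35.3.

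Of the skin and squamous epithelium miRNAs, miR-203 was measured in every sample and miR-205 in none. miR-203, which restrains proliferation of epidermal cells by acting on p63, had a Ct of 33.2, 33.04 and 29.0 in the LETO samples and 31.3, 31.9 and 29.9 in the OLETF samples. Replicate 3 of each strain was lowest, and the groups overlapped. Its mean Ct was 31.4, rank 107 of 122. miR-205, a marker of basal epithelium, gave no Ct in any of the 6 samples.

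Among the liver and gut miRNAs, miR-192 had a Ct of 30.7, 30.1 and 27.5 in the LETO samples and 29.6, 29.9 and 28.3 in the OLETF samples, with a mean of 29.4 (rank 72). miR-194 had a Ct of 32.4, 31.99 and 28.6 in the LETO samples and 31.6, 32.4 and 30.3 in the OLETF samples, with a mean of 31.2 (rank 104). For both, replicate 3 of each strain was lowest and the strains overlapped. miR-122, the hepatocyte miRNA, gave no Ct in any sample. Without a sample known to hold miR-122 or miR-205, their absence cannot be told apart from an assay that did not work. The gut and kidney miRNA miR-215, which shares the seed of miR-192 and a hairpin group with a copy of miR-194, gave a Ct in 1 of 6 samples, at 35.1.

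The order by mean Ct was miR-200c, miR-192, miR-194 and miR-203, in an upper and a lower pair. The Ct of miR-200c minus that of miR-192 in the same sample was -0.066 ± 0.599 (SD, n = 6), positive in 2 of 6 samples, so the upper pair did not differ beyond its spread. miR-194 minus miR-203 was -0.184 ± 0.659, positive in 3 of 6, and the lower pair did not differ beyond its spread either. Between the pairs, miR-203 lay above miR-200c by 2.09 ± 0.999 cycles and miR-194 above miR-192 by 1.84 ± 0.464 cycles, both in 6 of 6 samples. Without LETO replicate 3 the mean Ct kept this order, at 29.53, 29.7, 31.7 and 31.9 (ranks 68, 72, 104 and 108), and the 4 differences were -0.206 ± 0.550, -0.135 ± 0.724, 2.34 ± 0.888 and 1.996 ± 0.289 cycles (SD, n = 5). The other members have no mean over 6 samples, since each had at least 1 well without a Ct.

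**Figure D2:**
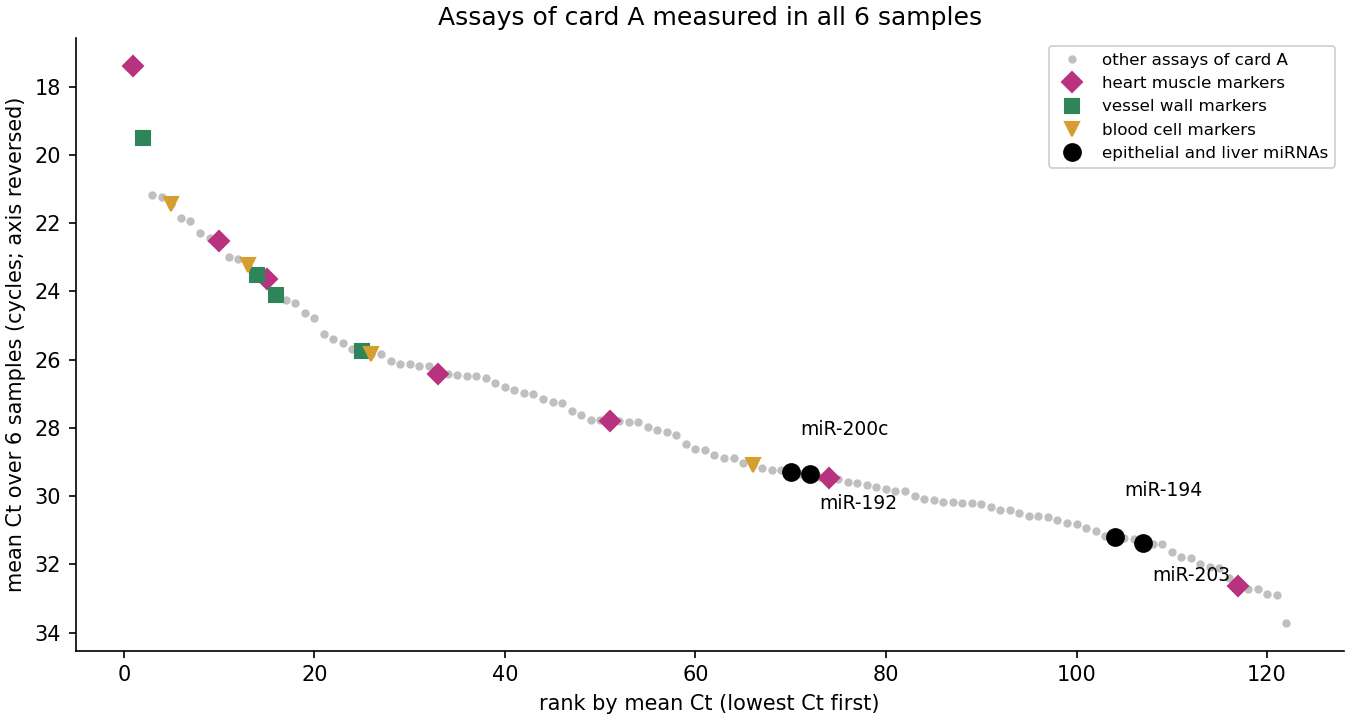
Mean Ct over the 6 samples (cycles, axis reversed) against rank for the 122 card A miRNA assays measured in all of them, with heart muscle, vessel wall and blood cell markers coloured and the epithelial and liver miRNAs in black. miR-200c and miR-192 sit at ranks 70 and 72, near the heart muscle miRNA miR-208 at rank 74, and miR-194 and miR-203 at ranks 104 and 107.

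Marker miRNAs of heart muscle gave the scale for these Ct values. All 7 assays of heart muscle markers were measured in all samples, from miR-133a at a mean Ct of 17.4 and rno-miR-1 at 22.5 to miR-208b at 32.6. The other miR-1 assay, mmu-miR-1, had a mean of 26.4, so this scale depends on the assay chosen. miR-208, which is encoded in a cardiac myosin gene, had a mean of 29.5, rank 74, close to miR-200c and miR-192. All 4 vessel wall assays were also measured throughout, led by the endothelial miR-126-3p at 19.5 and the smooth muscle miR-145 at 23.5. Of 6 blood cell assays, 4 were measured in all samples, led by the lymphocyte miRNA miR-150 at 21.4 and the red cell miRNA miR-486 at 23.2. The red cell markers did not go together, since miR-451 was measured in 1 LETO and 0 OLETF samples.

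A further list held 10 assays of miRNAs known from epithelium, gut and pancreas. Of these, 1 was measured in all samples (miR-31, Ct 27.4 to 31.3), 4 in some samples and 5 in none, beside 32.5% of card A assays measured in all samples and 56.0% in at least 1. miR-338-3p was measured in 2 LETO and 1 OLETF samples, miR-182 in 1 of each, and miR-216a and miR-217 in 1 LETO sample each. miR-96, miR-183 and the islet miRNA miR-375 gave no Ct in any sample. Of 5 brain marker assays, 2 were measured in all samples (miR-138, mean Ct 29.4, and miR-9, 31.2), 1 in some and 2 in none. Levels relative to U6 were also summed over those assays of a list that were measured in all samples. These were 7 for heart muscle, including both miR-1 assays, 4 for vessel wall, 4 of 6 for blood and 2 of 5 for brain. The sum of the heart muscle list was 0.046 to 1.48 log2 units in LETO and 0.20 to 0.99 in OLETF. That of the blood list was -3.77 to -2.36 and -3.16 to -2.53. For the vessel list it was -2.40 to 0.35 and -2.11 to -0.22, and for the brain list -12.50 to -9.30 and -12.25 to -9.58. For miR-192 with miR-194 it was -12.31 to -9.09 and -11.73 to -9.77. The level of miR-200c alone was -12.47 to -10.29 and -11.65 to -10.74. That of miR-203 alone was -15.58 to -11.14 and -13.95 to -11.66, and that of miR-31 alone -13.19 to -9.51 and -13.39 to -11.11. The part of blood or of other cell types in the members' values was not tested.

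How far a single well can be trusted was read from card B, where 150 assays had 2 wells. Of wells with a Ct under 30, the partner well was determined in 100% of 167 cases, and single wells had an SD of 0.282 cycles. From 30 to 33, the range that holds 5 of the 6 values of miR-194, the partner was determined in 99.3% of 137 wells and the SD was 0.430 cycles. From 33 to 35 the partner was determined in 83.2% of 149 wells with an SD of 1.01 cycles, and from 35 to 38, the range of all 5 determined wells of miR-429, in 69.6% of 158 wells with an SD of 1.58 cycles. A missing well at the level of miR-429, miR-200a or miR-200b was therefore common among assays of like Ct, and their counts of samples carry that uncertainty. The plant miRNA ath-miR159a, a negative control, gave no Ct in any of its 12 wells.

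**Figure D3:**
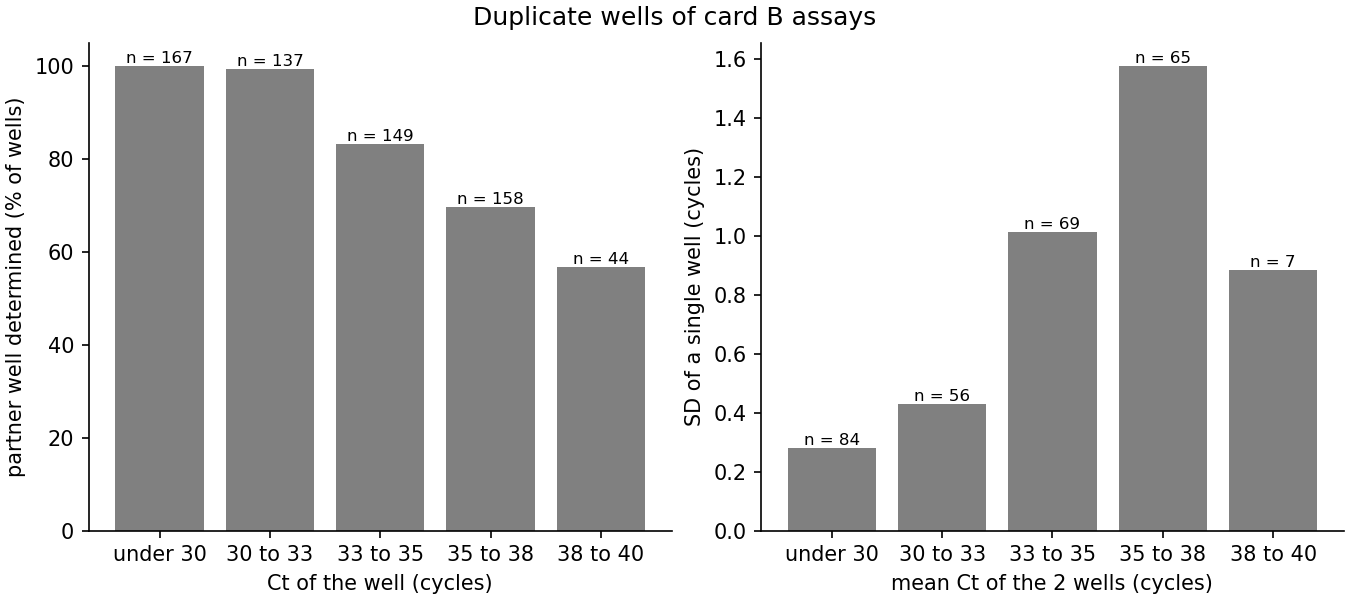
Left, share of card B wells (percent) whose partner well gave a Ct, by the Ct of the well; right, SD of a single well (cycles) by the mean Ct of the 2 wells, with the number of wells or pairs above each bar. The share fell from 100% under a Ct of 30 to 69.6% between 35 and 38, while the SD rose from 0.282 to 1.58 cycles. From 38 to 40 the share was 56.8% (44 wells) and the SD 0.884 cycles (7 pairs). The SD uses only pairs with a Ct in both wells.

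The strains were then compared for the 4 miRNAs measured in all samples. No difference passed an adjusted p of 0.05 in limma, either for these 4 or among all 193 tested assays (0% with U6 and 0% with the card median; 2 and 12 assays had an unadjusted p under 0.05). Relative to U6, the mean log2 level of miR-200c was -11.33 ± 1.09 over the LETO samples and -11.16 ± 0.46 over the OLETF samples (SD, n = 3 per strain), a difference of 0.17. miR-203 differed by 0.46, miR-192 by -0.09 and miR-194 by -0.69, each with a limma SE of 1.38 and an adjusted p of 0.997. Their 95% intervals were wide, from -2.53 to 2.88 for miR-200c, -2.25 to 3.16 for miR-203, -2.79 to 2.62 for miR-192 and -3.39 to 2.02 for miR-194. The exact permutation p was 0.8, 0.8, 1 and 0.7 in that order, two-sided, and 3 against 3 samples allow none below 0.1. The median difference over all 193 assays was -0.60, and it became 0.38 without LETO replicate 3 and -1.57 without LETO replicate 2.

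The level relative to the median of the 122 assays of the same card varied less between samples of a strain, except for miR-200c in OLETF (SD 0.51 against 0.46 with U6). For miR-200c it was -0.41, -0.41 and -1.68 log2 units in the LETO samples and -0.37, -0.0034 and -1.01 in the OLETF samples, lowest in replicate 3 of both strains. For miR-203 it was -3.14, -3.52 and -2.53 in LETO and -2.41, -2.88 and -1.92 in OLETF, higher in OLETF in 8 of 9 pairs of an OLETF and a LETO sample. For miR-192 it was -0.66, -0.60 and -1.05 in LETO and -0.69, -0.90 and -0.37 in OLETF, higher in OLETF in 5 of 9 pairs.

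For miR-194 the level relative to the card median was -2.35, -2.48 and -2.10 in LETO and -2.71, -3.37 and -2.30 in OLETF, higher in OLETF in 2 of 9 pairs. On this scale OLETF minus LETO was 0.38 (SE 0.484) for miR-200c, 0.66 (SE 0.429) for miR-203, 0.12 (SE 0.360) for miR-192 and -0.48 (SE 0.400) for miR-194. The limma adjusted p was 0.772, 0.632, 0.870 and 0.638, and the exact permutation p 0.5, 0.2, 0.7 and 0.3. The strains overlapped for all 4, while 13.6% of the 162 assays measured in all samples on both cards did not overlap with this reference and 0% with U6.

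The signs of these differences were not settled. miR-192 was -0.09 with U6 and 0.12 with the card median. Without LETO replicate 3, the U6 values became 0.69 for miR-200c, 1.67 for miR-203, 0.72 for miR-192 and 0.36 for miR-194, so the last pair changed sign. With the card median and without that sample, miR-200c became -0.048 and miR-192 -0.023, both with a change of sign on that reference, miR-203 became 0.93 and miR-194 -0.38. With all samples kept, miR-200c and miR-203 were positive and miR-194 negative with both of these references.

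**Figure D4:**
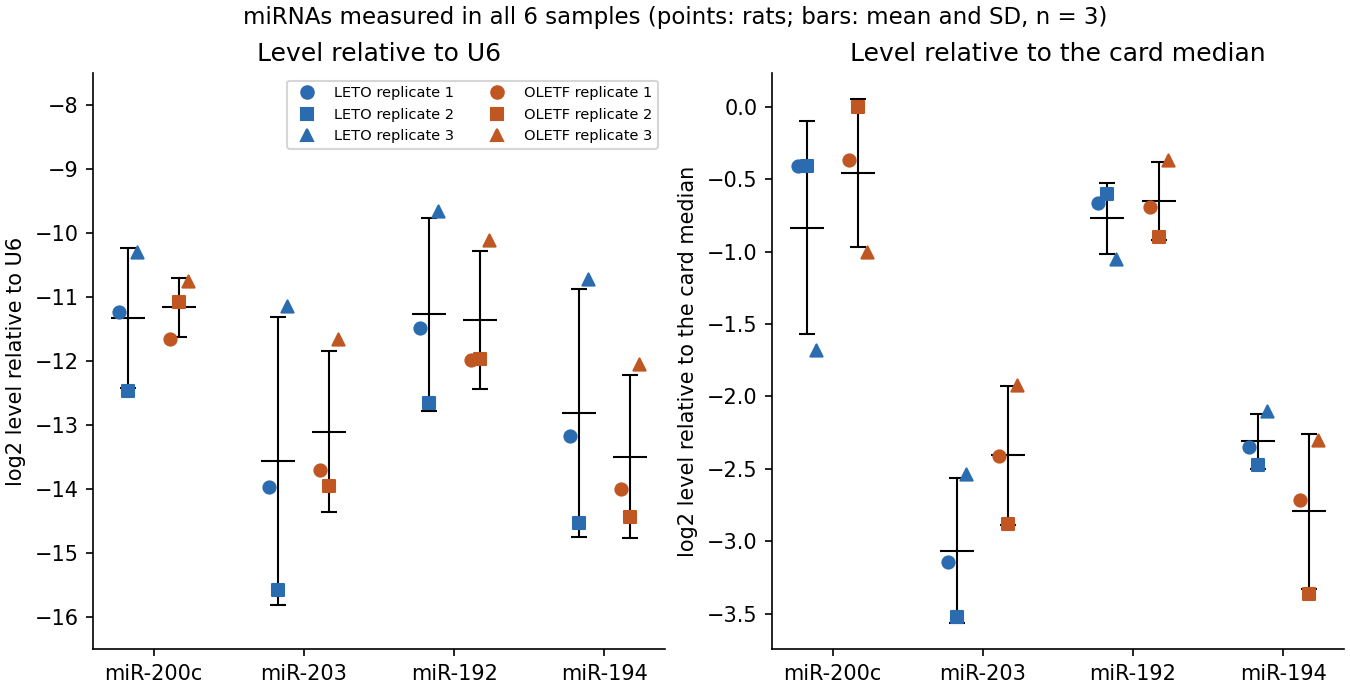
Level of miR-200c, miR-203, miR-192 and miR-194 in each sample on the log2 scale, relative to U6 (left) and to the median of the card (right), with horizontal bars for the mean and vertical bars for the SD (n = 3 per strain). The strains overlap in every panel and for each miRNA, and replicate 3 of each strain lies highest for all 4 relative to U6.

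Differences between members of the same sample need no reference. miR-194 minus miR-203 was -0.79, -1.05 and -0.43 cycles in the LETO samples and 0.30, 0.48 and 0.38 in the OLETF samples. All LETO samples thus had the lower Ct for miR-194 and all OLETF samples the lower Ct for miR-203. miR-194 minus miR-192 was 1.69, 1.88 and 1.05 in LETO and 2.02, 2.46 and 1.93 in OLETF, so the OLETF values lay above the highest LETO value, the nearest by less than the SD of a single well. Of the 6 pairs that the 4 miRNAs form, these 2 did not overlap between strains, and both contain miR-194. Among the 7381 pairs of card A assays measured in all samples, 13.8% did not overlap, and these differences were noticed after the values were seen and carry no test.

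Over all 6 samples the Ct of miR-200c moved little, while its level relative to the card median varied about as much as that of other assays. The SD of its Ct over the 6 samples was 0.791 cycles, rank 15 of 122 from the smallest, against 1.19 for miR-192, 1.498 for miR-194 and 1.67 for miR-203 and a median of 1.39 over the assays. These SDs hold the shift of each whole sample. Relative to the card median miR-200c instead had the highest SD of the 4. It was 0.60 log2 units for miR-200c (rank 72), 0.57 for miR-203 (rank 64), 0.45 for miR-194 (rank 33) and 0.24 for miR-192 (rank 5), with a median of 0.56. Without LETO replicate 3, the SD of Ct was 0.636 for miR-200c, 0.877 for miR-192, 0.875 for miR-194 and 1.35 for miR-203. The SD of the level relative to the card median was then 0.36, 0.19, 0.44 and 0.62 in that order. On this SD miR-200c ranked 41 of 122 without that sample, below the median of 0.44 and below miR-203. The Ct of miR-200c in LETO replicate 3 minus the mean of LETO replicates 1 and 2 was -2.001 cycles, while that of miR-192 was -2.85, that of miR-194 -3.58, that of miR-203 -4.07 and that of the median assay -3.30.

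The assays whose pattern over the 6 samples was most like each member were found by the root mean square difference of levels relative to the card median, centred on their means. For miR-200c these were miR-384-5p (0.26 log2 units) and miR-146a, an inflammation-induced miRNA (0.27), against a median of 0.81 over 121 assays. For miR-203 they were miR-15b (0.31) and miR-365 (0.35), with a median of 0.72. For miR-192 they were miR-24 (0.11) and let-7d (0.18), with a median of 0.55, and for miR-194 the muscle miRNA miR-133b (0.11) and miR-30b (0.14), with a median of 0.50. Without LETO replicate 3, miR-194 had the same assays (0.11 and 0.13), and miR-203 had miR-214 (0.30) and miR-365 (0.32). miR-200c had miR-486 and miR-130a (0.17 and 0.18), and miR-192 had miR-30a and miR-222 (both 0.11). The closest assays of miR-200c and miR-192, and miR-15b as the closest of miR-203, thus rest on that sample. All were picked as the smallest of 121 distances. Those of miR-200c, miR-192 and miR-194 lay below the SD of a single well under a Ct of 30 (0.282 cycles). Such a distance does not by itself show that the miRNAs vary together.

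The genomic neighbours miR-192 and miR-194 were not each other's closest assays. They differed by 0.42 log2 units on that measure, rank 34 of 121 for miR-192 and rank 48 for miR-194. Each had 1 well per sample. Single wells of card B had an SD of 0.282 cycles under a Ct of 30 and 0.430 from 30 to 33. A difference of 0.42 between assays with 1 well each therefore does not show that the neighbours vary apart. miR-200c and miR-203 differed by 0.91, above the median for each. These are descriptions over 6 samples that share cards and reference.

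The authors' deposited table of OLETF to LETO ratios lists a value for each member, including those that did not amplify. In the authors' deposited table the ratio was 1.13 for miR-200c, 1.37 for miR-203, 0.942 for miR-192 and 0.621 for miR-194. That table gives 1.71 for miR-141, with 1 undetermined sample, 0.652 for miR-429, with 1, 1.10 for miR-200a, with 4, and 0.283 for miR-200b, with 5. The authors' deposited table gives 0.841 for both miR-205 and miR-122, which amplified in no sample. All 120 card A assays without a Ct in any sample carry that same ratio, which equals 2 to the power of the difference in U6 Ct (-0.25 cycles; LETO 18.2, OLETF 17.9) when wells without a Ct are counted as 40 cycles. The ratios of miR-205 and miR-122 therefore hold no measurement of these miRNAs, and that of miR-200b rests on 1 well.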

How the data were processed

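MicroRNA was measured by RT-qPCR on TaqMan rodent cards in 3 LETO and 3 OLETF left ventricles. The authors deposited Ct values per well (768 per sample, 384 per card), delta Ct against U6 (a log2 quantity with reversed sign) and a linear ratio of OLETF to LETO. Per the labels, U6 was the endogenous control. For card A, delta Ct recomputed against the mean Ct of 4 U6 wells differed from the deposited values by at most 3.75e-06. The instrument's baseline and threshold settings are not given in the sources used here.

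Where an assay had several determined wells, their mean was used, and a Ct of 35 or more was treated as not measured. Assays measured in at least 2 samples of each group (193) were compared with limma 3.58.1 in R 4.3.3 (lmFit and eBayes, two-sided, Benjamini-Hochberg over all 193). The code was first run on simulated data with known shifts. Their spread was smaller than that of the U6 levels here, so that run does not show the power of these comparisons. With U6 the SE was pooled over assays. Other values were computed in Python 3.11.15 with pandas 2.3.3, and exact permutation tests were two-sided. The named miRNAs were all 10 members, the 2 assays most alike each member measured in all samples, the leading members of each marker list, and the controls. Members, lists and tests were chosen with earlier results of these data known. Replicate numbers were not taken as pairs in the main fit. Same-numbered samples correlated at -0.0879, 0.228 and 0.616 over 162 assays, which does not settle whether the numbers mark pairs. The replicate number was therefore also used as a block, with 9 assays at an unadjusted limma p under 0.05 instead of 2. Alternatives were other references, filters and Ct limits, and each sample left out.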

Additional observations from a re-analysis of the deposited data

Results flagged for a closer look

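The minor strand of miR-141, measured by an assay of card B that the comparisons above do not use, gave a Ct in 4 of its 12 wells, while the plant control gave none in 12. Of the 4 wells, 3 were in LETO and 1 in OLETF samples, they came from 3 samples, and their Ct ran from 34.91 to 37.7, with 2 wells under 35. The minor strands of miR-200a, miR-200b and miR-200c gave a Ct in 0 of 12 wells each. Late Ct values were common among the card B assays with 2 wells, where 149 wells lay from 33 to 35 and 158 from 35 to 38. The 4 wells therefore do not set the minor strand of miR-141 apart from other assays.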

How the results depend on the processing

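None of the 4 tested miRNAs passed the threshold in the main setting or in any of 25 others (smallest adjusted p 0.436, limma), and the count of assays called was 0 except with the replicate number as a replicate block, where it was 1 (miR-466d-3p). Under that block the differences of the 4 miRNAs were as without it, with a smallest adjusted p of 0.815. The difference of miR-192 changed sign to 0.12 with the card median, 0.40 with the array median, 0.77 with other small RNA controls, 0.029 with U6 averaged over both cards and 0.094 with replicates 1 and 2 only. That of miR-194 changed to 0.16 with other small RNA controls. With 1 sample left out in turn, miR-200c ranged from -0.40 to 0.69, miR-203 from -0.55 to 1.67, miR-192 from -0.78 to 0.72 and miR-194 from -1.55 to 0.36. With the card median they ranged from -0.048 to 0.70, 0.38 to 0.93, -0.063 to 0.32 and -0.77 to -0.17. Against its U6 value, miR-192 changed sign there to 0.22 without LETO replicate 1, 0.32 without LETO replicate 2, 0.22 without OLETF replicate 1 and 0.27 without OLETF replicate 2, and miR-200c to -0.048 without LETO replicate 3. The cause of these changes was not tested. With a Ct limit of 32, 2 members instead of 4 were measured in all samples, and miR-203 could not be tested. Replicates 1 and 2 only, the card median with samples left out, and the order, spread and closest assays without LETO replicate 3 were chosen after seeing the data. Each member had 1 well per sample, which limits what can be said past a Ct of 33.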
